A study of Mus musculus with 8 samples.

Results

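The genes described here sit next to each other on mouse chromosome 7 and had lower RNA levels in interleukin-4-treated than in untreated bone marrow-derived macrophages. They were chosen by position and by measured values: a window of 100 kb on this chromosome (genome build mm9) was picked because the counts of its genes were known to be lower with interleukin-4 (IL-4). A gene belongs to the set if it lies inside the window and holds a reference-matching transcript with a coding-sequence identifier in the authors' merged annotation. This gave 4 loci, of 19989 loci on all chromosomes that hold such a transcript and of 31020 merged loci in all. The members are Syt8, Tnni2, Lsp1 and Prr33. Tnnt3, which the working name of the domain includes, is not a member: its span, chr7:149684741-149701914, runs past the end of the window. Its values are given beside the members' because it is the nearest gene outside the rule.

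The cells were macrophages grown from bone marrow of C57BL/6 mice, a standard inbred laboratory strain, either left untreated (4 libraries) or exposed to IL-4 (4 libraries), a cytokine of type 2 immunity that moves macrophages towards a tissue-repair state. Neither the dose, the duration of exposure nor the animals' age is stated in the labels. Total RNA depleted of ribosomal RNA was sequenced, so transcripts with and without a poly(A) tail, and unspliced RNA, can be present. The comparison asks which transcripts differ in abundance after IL-4.

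Lsp1 encodes leukocyte-specific protein, an F-actin-binding protein of white blood cells that takes part in their adhesion and migration. Tnni2 and Tnnt3 encode the fast skeletal muscle forms of troponin I, the inhibitory subunit, and troponin T, the tropomyosin-binding subunit, which together with troponin C switch muscle filaments on and off in response to calcium. Syt8 encodes a synaptotagmin, a family of membrane proteins with C2 domains that is known mainly for vesicle fusion. Prr33 is named for a proline-rich protein, but RefSeq lists it as a long non-coding RNA, and its function is not well described. This stretch of chromosome 7 lies beside the imprinted domain of H19 and Igf2, and next to Ctsd, the lysosomal protease cathepsin D.

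In mm9, Syt8 (XLOC_025012) lay at chr7:149608492-149626303, Tnni2 (XLOC_025013) at chr7:149628374-149630311 and Lsp1 (XLOC_025014) at chr7:149646775-149680771, all on the plus strand. Prr33 (XLOC_026277) lay at chr7:149676985-149692676 on the minus strand. The gap from Syt8 to Tnni2 was 2070 nucleotides (nt) and that from Tnni2 to Lsp1 was 16463 nt. Prr33 overlapped the end of Lsp1 by 3787 nt and the start of Tnnt3 by 7936 nt. Of the 2245 exonic nt of Prr33, 1910 (85.1%) lay inside the span of Lsp1, in its last intron, and the other 335 (14.9%) inside the span of Tnnt3. No exonic nucleotide was shared between these loci. The gene names rest on how the loci are spaced, not on an identifier: in this neighbourhood 7 loci matched a RefSeq gene exactly in length and in distance from each other, Prr33 among them, while Tnni2 was the least closely matched member, with 74.6% of the longer span shared.

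Upstream sequence is shown for Syt8 and Prr33 as context for genes that had lower levels together, because the RefSeq promoter table at hand (GRCm38.p6) holds windows for these members: 3 for Syt8 and 1 for Prr33. The Syt8 window is chr7:142434600-142434849 on the plus strand, the 250 bases before the first of its RefSeq starts. It does not lie at the upstream starts at 149608492 and 149611053 (mm9), which held 32.8% and 22.9% of the untreated Syt8 FPKM, against 12.6% for the reference start. The Prr33 window is chr7:142506772-142507021, written 5′ to 3′ along the minus strand. Capitals mark GAGGAA on either strand, the core letters of a PU.1-type motif (PU.1 is a transcription factor of macrophages), and, in Syt8, TGANTCA, the letters of an AP-1-type motif, which do not overlap the former.
Syt8: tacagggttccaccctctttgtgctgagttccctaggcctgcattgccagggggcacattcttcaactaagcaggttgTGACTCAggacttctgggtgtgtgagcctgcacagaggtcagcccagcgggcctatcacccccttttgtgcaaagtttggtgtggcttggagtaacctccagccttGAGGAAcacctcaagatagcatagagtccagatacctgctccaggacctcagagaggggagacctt
Prr33: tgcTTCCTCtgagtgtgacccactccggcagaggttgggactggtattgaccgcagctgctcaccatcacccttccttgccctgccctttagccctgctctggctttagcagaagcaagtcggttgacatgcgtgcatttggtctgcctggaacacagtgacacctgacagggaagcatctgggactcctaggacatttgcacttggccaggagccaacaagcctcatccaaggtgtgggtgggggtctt
GAGGAA was found 1 time in each of the 4 windows, searched on both strands, and in 23.3% of the 32851 windows of the table. The first and second Syt8 windows overlap and share the same match, so the 4 windows hold 3 separate ones. TGANTCA was found in 1 of the 3 Syt8 windows and not in that of Prr33, against 6.7% of all windows. The letters TTC and GAA with 4 bases of any kind between them, a STAT6-type motif (STAT6 is the factor that the IL-4 receptor activates), were in none of the 4 windows and in 5.9% of all, and with 3 bases between them in none and in 7.0%. The TATA box letters TATAAA were in none of the 4 and in 12.4% of all. The E-box letters CANNTG occurred 6 times in the Prr33 window, 0 times in the printed Syt8 window and 1 time in each of the other Syt8 windows, and 66.2% of all windows held at least 1. G and C made up 54.8% of the printed Syt8 bases and 56.8% of those of Prr33, against a median of 52.4% over all windows. These matches describe letters and say nothing of binding.

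Before the members' values, some facts of the libraries bear on them. The libraries held 23071022 to 27783417 counts in total, spread over 17767 to 18661 loci. Both replicate 4 libraries, 1 of each group, carried 5808 (untreated) and 5525 (IL-4) counts on chromosome Y and the other 6 carried 0 to 7, so values are also given without them. Levels of a locus are given as CPM, its count per 1000000 counts of the library. Fold changes come from edgeR with TMM scaling, which set the median of all 13761 tested loci at a log2 fold change of -0.02. Scaling by total counts alone set that median at -0.13, lower by 0.11, so ratios of the printed CPM are slightly larger than the fitted folds. In bulk RNA, fewer cells that express a gene and less RNA per cell cannot be told apart.

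**Figure D1:**
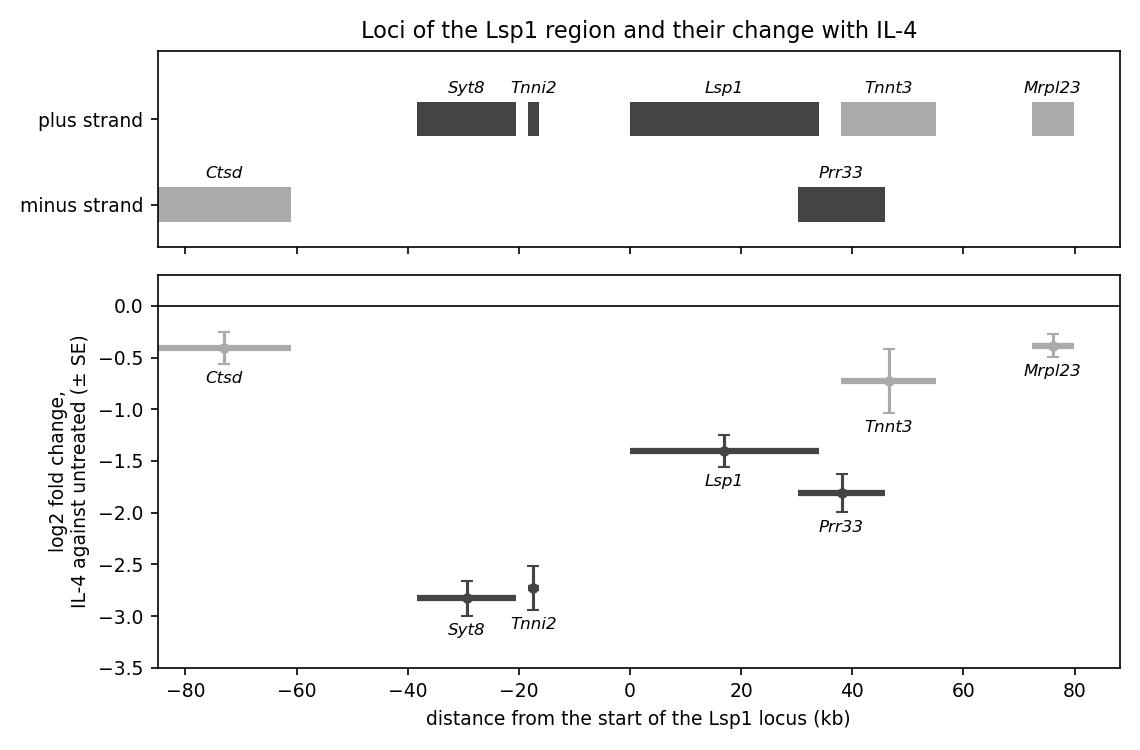
Map of the region: horizontal axis, distance from the start of the Lsp1 locus in kb; upper part, loci by strand; lower part, log2 fold change of IL-4 against untreated with its standard error (members dark, other loci grey, n = 4 per group). The members lie between -2.83 and -1.40, while Tnnt3, Ctsd and Mrpl23 lie between -0.73 and -0.38.

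All 4 members had lower levels with IL-4. Syt8 was 7.10-fold lower, Tnni2 6.62-fold, Prr33 3.51-fold and Lsp1 2.65-fold. In each of the 4 genes every IL-4 library lay below every untreated library. The 4 members passed the edgeR threshold (adjusted p under 0.05) in the lower direction, as did 26.2% of all tested loci. They were at least 2-fold lower, as were 8.04% of the loci, and had no overlap between the groups in that direction, as had 31.5%. The median log2 fold change was -2.27 over the 4 members and -0.02 over all tested loci. Because the window was selected on these same contrasts, nothing is read from these counts, and no replicate or second measurement that the choice did not use was at hand for a test.

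Lsp1 was by far the most abundant member and held 88.2% of the members' counts in the untreated and 94.3% in the IL-4 libraries. Its summed isoform FPKM, a level per kilobase of transcript that is scaled to library size, was 89.7 ± 21.4 (SD, n = 4) in untreated cells, above 97.2% of the 19989 coding loci, and 33.5 ± 1.75 (SD, n = 4) with IL-4, above 91.6%. In CPM, the untreated libraries 1 to 4 had 224, 165, 145 and 235, and the IL-4 libraries 68.0, 69.9, 72.0 and 61.5. Untreated replicates 1 and 4 were high and replicates 2 and 3 lower, whereas the IL-4 libraries lay close together. The means were 192 ± 43.8 and 67.8 ± 4.55 CPM (SD, n = 4), and the log2 fold change was -1.40 (SE 0.15). Paired by number, the IL-4 library was lower by 3.30-, 2.37-, 2.02- and 3.82-fold. The labels do not state such pairs, so these folds and those by pair below are a description. Without both replicate 4 libraries the log2 fold change was -1.26.

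Tnni2, the troponin I gene of fast muscle, was the second most abundant member both in CPM and in FPKM. Its CPM were 18.8, 12.6, 11.2 and 11.9 in untreated libraries 1 to 4 and 2.44, 2.09, 1.42 and 1.70 with IL-4. Untreated replicate 1 stood above the other untreated libraries, and the groups did not overlap. The means were 13.6 ± 3.51 and 1.91 ± 0.446 CPM (SD, n = 4), from 1347 and 201 counts in all. The log2 fold change was -2.73 (SE 0.21), and -2.74 without both replicate 4 libraries. The pairs differed by 7.73-, 6.03-, 7.88- and 7.02-fold, the narrowest relative range of the 4 members. Summed FPKM was 15.4 ± 4.19 and 2.64 ± 0.729 (SD, n = 4), so in untreated cells this muscle gene lay above 83.4% of coding loci by FPKM.

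Syt8 had a low level and a fold close to that of Tnni2. Which of the 2 was lower depended on the setting: without untreated replicate 3 the log2 fold changes were -2.76 for Syt8 and -2.82 for Tnni2, and without IL-4 replicate 1 they were -2.77 and -2.84. On summed FPKM they were -1.82 and -2.51, an order that is not read because the pseudocount of 0.1 shrinks the Syt8 value. The CPM of Syt8 were 6.01, 8.43, 9.15 and 7.30 in untreated libraries 1 to 4 and 0.929, 0.900, 0.960 and 1.22 with IL-4. The order of the untreated libraries was the reverse of that for Tnni2 at its ends: replicate 1 was the lowest and replicate 3 the highest. The means were 7.72 ± 1.37 and 1.002 ± 0.147 CPM (SD, n = 4), from 760 and 105 counts. The log2 fold change was -2.83 (SE 0.17), and -2.98 without both replicate 4 libraries. On summed FPKM, 0.584 ± 0.14 and 0.0915 ± 0.0250 (SD, n = 4), the log2 difference was smaller at -1.82 with a pseudocount of 0.1, which understates changes at such low values. The pairs differed by 6.47-, 9.37-, 9.53- and 5.99-fold.

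Prr33 on the opposite strand had CPM of 4.76, 3.86, 3.77 and 4.88 in untreated libraries 1 to 4 and 1.39, 0.936, 1.34 and 0.924 with IL-4. Its untreated libraries split as those of Lsp1 did, with replicates 1 and 4 high. The means were 4.32 ± 0.584 and 1.15 ± 0.252 CPM (SD, n = 4), from 425 and 119 counts, with a log2 fold change of -1.81 (SE 0.18) and -1.67 without both replicate 4 libraries. The pairs differed by 3.42-, 4.13-, 2.83- and 5.28-fold. For each 100 Lsp1 counts there were 2.28 ± 0.236 Prr33 counts without and 1.69 ± 0.324 with IL-4 (SD, n = 4), with the lowest untreated value at 2.08 and the highest IL-4 value at 2.05. The authors' annotation gives Prr33 a coding-sequence identifier, while the RefSeq table lists it as a long non-coding RNA. Since most of its exonic length lies in the last intron of Lsp1 and the sources used here do not say whether reads were counted by strand, Prr33 reads and unspliced Lsp1 reads cannot be told apart, and Prr33 is an uncertain member.

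**Figure D2:**
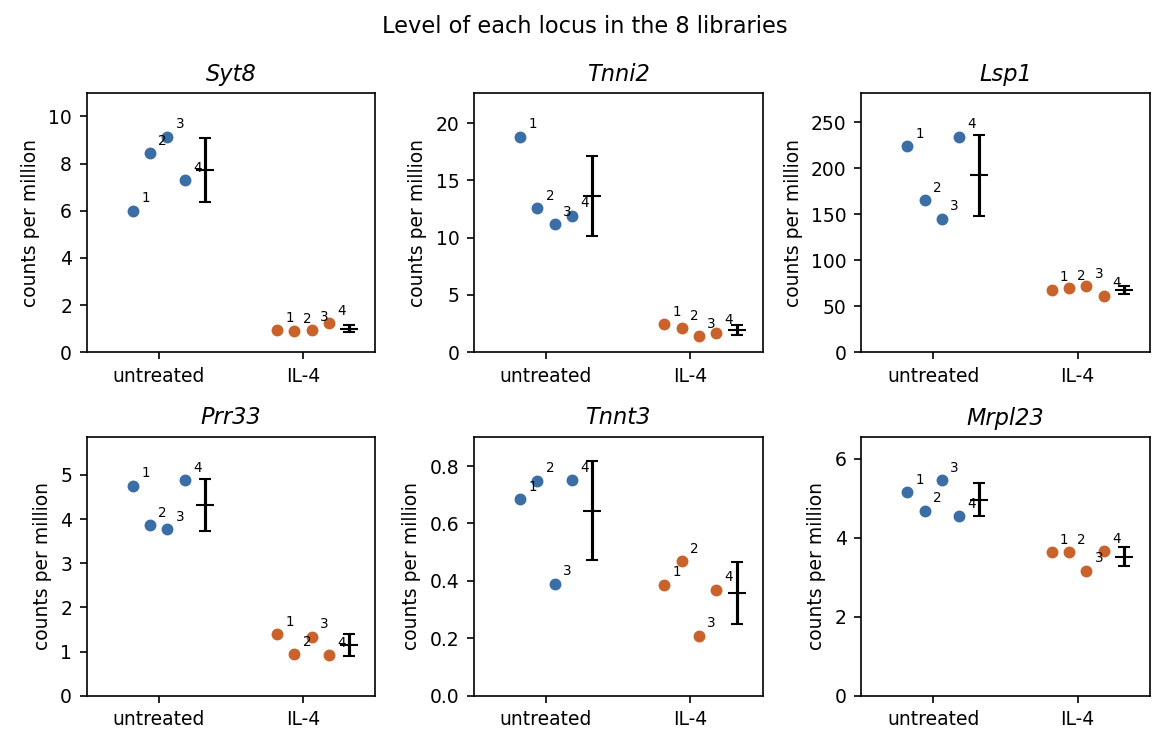
CPM (vertical axis, from 0, scale differing by panel) of the 4 members, Tnnt3 and Mrpl23 in each library: blue points untreated, orange points IL-4, numbers the replicate, bars the mean ± SD (n = 4). The 4 member panels show no overlap between groups, and in Tnnt3 untreated replicate 3 (0.390) lies within the IL-4 range of 0.209 to 0.468.

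Tnnt3, the troponin T gene just outside the rule, was close to the limit of detection. It had 17, 20, 9 and 18 counts in untreated libraries 1 to 4 and 10, 13, 5 and 10 with IL-4. Replicate 3 was the lowest in both groups, and the groups overlapped. The means were 0.644 ± 0.172 and 0.358 ± 0.109 CPM (SD, n = 4), with a log2 fold change of -0.73 (SE 0.31). It did not pass the edgeR threshold (adjusted p = 0.0696). It did pass with the replicate block, a fit that pairs libraries by number (adjusted p = 0.0355), and without untreated replicate 3 (adjusted p = 0.0247). Each IL-4 library was the lower of its pair, by 1.60- to 2.03-fold. Among its 16 transcripts, all but a trace of the FPKM was given to the 6 that start at position 149687525. Of these, TCONS_00072430 and TCONS_00072434 held 49.9% each of the untreated FPKM, with equal values in every untreated library, and the rest were next to 0. The 10 from the upstream start at 149684741 were at or next to 0 FPKM. Set beside the members, Tnni2 showed 22.2 ± 6.80 counts for each Tnnt3 count without IL-4 and 5.54 ± 1.19 with it (SD, n = 4).

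On either side of these genes lay others with smaller or no differences. The merged locus of Ctsd, on the minus strand, lay 22717 nt from that of Syt8. The annotated genes lie further apart. The Ctsd locus (149561821 to 149585774) is longer than its reference span of 11955 nt, and the Syt8 locus begins 12.4 kb before its reference start. Ctsd was among the most abundant loci, with 15215 ± 2026 CPM untreated and 10651 ± 2303 with IL-4 (SD, n = 4). Its groups overlapped, and its log2 fold change of -0.41 (SE 0.16) barely passed in edgeR (adjusted p = 0.0494), a call that was lost in 10 of 14 alternatives (adjusted p from 0.0025 to 0.151). Mrpl23, a gene of the mitochondrial ribosome 17107 nt past Tnnt3, had 4.96 ± 0.423 and 3.53 ± 0.237 CPM (SD, n = 4), a log2 difference of -0.38 with SE 0.11, which passed in edgeR (adjusted p = 0.0149) but not without IL-4 replicate 3 (adjusted p = 0.0542). By FPKM the levels of Mrpl23 were 6.04 ± 0.331 and 6.00 ± 0.674 (SD, n = 4) and overlapped, so its lower count was not matched in the isoform estimates. Further out, 5 keratin-associated protein genes (Krtap5-1 to Krtap5-5) and Ins2 had 0 counts in all 8 libraries, which allows up to 3 counts in a group, and Ifitm10, Igf2 and H19 had between 0 and 4 counts per group. A change of these silent or nearly silent genes was not detectable at this depth.

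The isoform values show where along each gene the signal lay. Lsp1 has 9 transcripts from 3 starts in the merged annotation. The start at position 149646775 held 97.0% ± 0.556 of the locus FPKM in untreated and 97.3% ± 0.219 in IL-4 cells (SD, n = 4). The start 16.1 kb downstream held 2.95% ± 0.535 and 2.68% ± 0.184, and the third, between them, 0.0488% ± 0.0582 and 0.0325% ± 0.0649. The shares of the starts overlapped between groups, while the FPKM of the first start was 87.0 ± 20.6 and 32.6 ± 1.76. Its main isoforms were TCONS_00072411, of 1403 nt and 11 exons, and TCONS_00072413, of 1385 nt and 11 exons. They differ by 18 nt at the start of the fifth exon (positions 149674753 to 149674770), which only the first contains. TCONS_00072411 had 52.2 ± 10.7 and 18.8 ± 0.537 FPKM, and TCONS_00072413 had 30.6 ± 8.92 and 12.4 ± 1.76 (SD, n = 4). Their shares of the locus, 58.7% ± 3.55 and 56.2% ± 3.35 for the first and 33.9% ± 3.05 and 36.7% ± 3.43 for the second, overlapped between the groups.

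Tnni2 has 1 reference transcript and 2 assembled ones. The reference transcript, TCONS_00072407 with 6 exons, had 13.8, 7.11, 6.70 and 7.26 FPKM in untreated libraries 1 to 4 and 0.954 to 1.38 with IL-4. The high untreated replicate 1 of the locus was thus set apart in this isoform and not in the others. The short assembled transcript TCONS_00072409, with 3 exons at the end of the gene, had 4.96 ± 0.911 and 1.26 ± 0.456 FPKM (SD, n = 4). Its share was 32.9% ± 5.65 in untreated (26.5% to 38.7%) and 46.9% ± 6.74 in IL-4 libraries (37.9% to 52.5%), so the ranges just met. By number, the share was higher with IL-4 in 4 of 4 pairs (26.5% and 51.7%, 38.7% and 45.4%, 36.3% and 37.9%, 29.9% and 52.5%). The other assembled transcript, TCONS_00072408, had 1.75 ± 0.335 and 0.215 ± 0.143 FPKM (SD, n = 4). In all 3 the IL-4 libraries lay below the untreated ones.

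For Syt8 most of the FPKM of the untreated cells was not in its annotated messenger RNA. The 4 reference transcripts, which start at or near position 149620882, summed to 0 to 0.171 FPKM in untreated and 0 to 0.0712 in IL-4 libraries, counting values next to 0 as 0, and overlapped between the groups. The 7 assembled transcripts summed to 0.377, 0.565, 0.547 and 0.513 FPKM in untreated libraries 1 to 4 and to 0.0425, 0.0515, 0.0665 and 0.0771 with IL-4. These groups did not overlap, and the assembled transcripts held 87.4% ± 10.4 of the untreated locus FPKM (SD, n = 4). With IL-4 their share was 71.1% ± 33.3 (SD, n = 4): it was 42.5% and 42.0% in replicates 1 and 2, where the reference transcripts held the larger part, and 100% in replicates 3 and 4. Of the 7, 5 start 12.4 kb or 9.8 kb before the reference start and contain an exon of 9308 to 9945 nt, most of which lies before it. The lower Syt8 count therefore describes a locus with a long upstream exon and cannot be read as a lower level of the annotated synaptotagmin transcript. At these values the division of FPKM among isoforms rests on few reads: the locus had 23 to 33 counts in an IL-4 library.

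**Figure D3:**
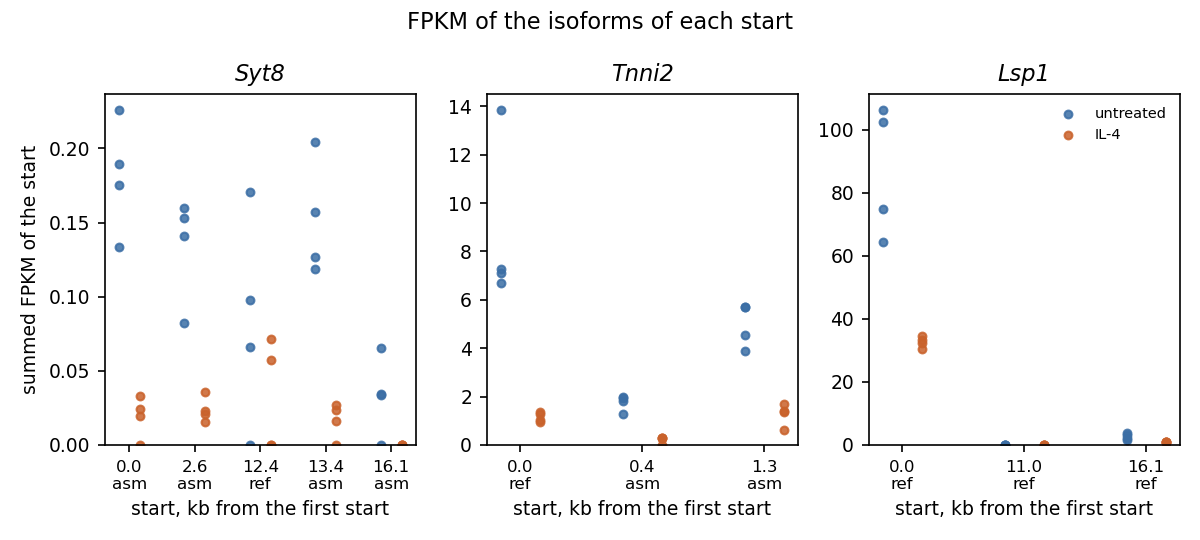
Summed FPKM (vertical axis, from 0) of the isoforms from each start of Syt8, Tnni2 and Lsp1, by distance of the start from the gene's first start in kb; "ref" marks starts with a reference transcript, "asm" those with assembled ones only, each point is 1 library. In Lsp1 the first start carries nearly all FPKM in both groups, and in Syt8 the groups overlap at the reference start (12.4 kb) and, next to 0, at the last start (16.1 kb).

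How the members vary among themselves was described over the 8 libraries on log2(CPM + 0.5). Over all 8, the members' Pearson correlations were 0.917 to 0.98, which the shared difference between groups sets. After the group means were taken off, Lsp1 and Prr33 had a correlation of 0.705 and Lsp1 and Tnni2 of 0.392. Syt8 went the other way, with -0.85 against Lsp1, -0.722 against Tnni2 and -0.643 against Prr33. The libraries where Lsp1 was high within its group were thus those where Syt8 was low: untreated replicate 1 had Lsp1 at 0.25 above and Syt8 at -0.32 from the group mean, and untreated replicate 3 had -0.38 and 0.25. These values share libraries and depth, rest on 4 libraries a group and describe them only.

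**Figure D4:**
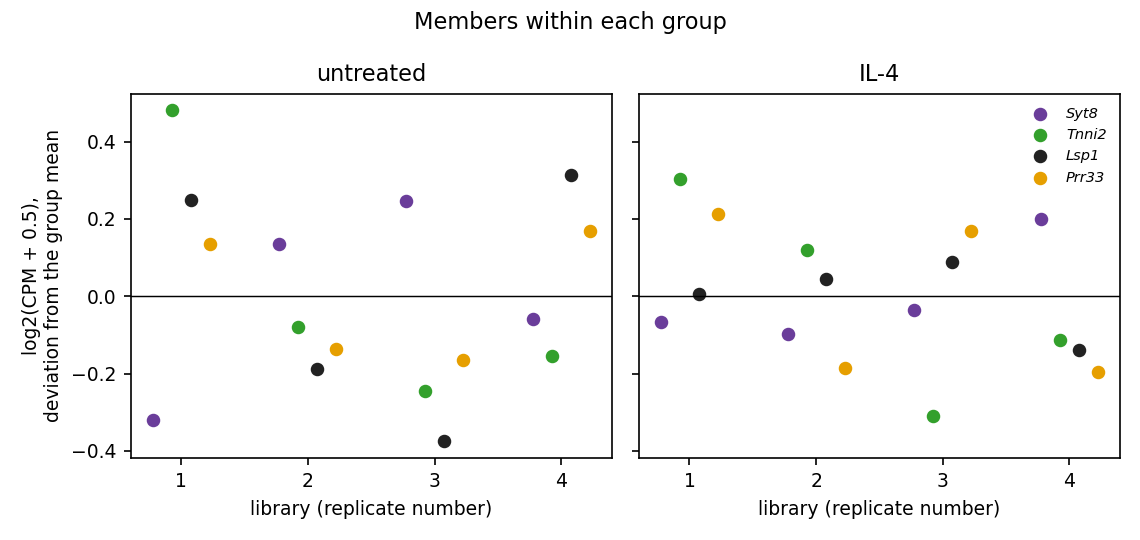
Deviation of each member from its group mean on log2(CPM + 0.5) (vertical axis) in each library (horizontal axis, replicate number), untreated left and IL-4 right. Lsp1 and Prr33 lie on the same side of 0 in the 4 untreated libraries and Syt8 lies on the other side.

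Outside the window, the 3 coding loci whose levels were most like those of Lsp1 over the 8 libraries, among 10790 compared, had Pearson correlations of 0.993, 0.992 and 0.992. They lay at chr11:82877458-83073778, chr12:27127608-27141317 and chr14:56210287-56229135, and were not paired with a symbol here. In each of the 3, untreated replicates 1 and 4 were high as in Lsp1, and the correlations include the difference between groups. The second had the largest fold change of the 3 (log2 -2.42, SE 0.21), with 79.2 ± 25.8 CPM untreated and 13.8 ± 0.904 with IL-4 (SD, n = 4). The first had 845 ± 79.6 and 570 ± 19.4 CPM and the third 128 ± 12.3 and 62.3 ± 2.78 (SD, n = 4).

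Genes of like function to Lsp1, Tnni2 and Syt8 were set beside them, with calls from the same edgeR fit. Of all tested loci, 26.2% fell and 25.6% rose in that fit. From a list of 12 leukocyte regulators of F-actin 10 were paired with a locus, and of the 9 other than Lsp1, 6 fell, 1 rose and 2 did not pass, with a median log2 fold change of -0.45. Those that fell were Fmnl1, a formin (-1.63, SE 0.12), Lcp1, an actin bundler (-0.91, SE 0.06), Hcls1 (-0.78), Was (-0.64), Arhgdib (-0.45) and Wipf1 (-0.34). Myo1g, a class I myosin of leukocytes, rose (0.96, SE 0.07), and Myo1f (0.02) and Cotl1 (0.00) did not pass. Lsp1, at -1.40, had a lower fold change than all of these but Fmnl1, in a list that was chosen with results known.

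For the troponin and sarcomere list outside the region, 6 of 14 paired genes passed the filter on low counts: 4 fell, 1 rose and 1 did not pass, with a median of -0.44. The slow-muscle troponins Tnnc1 (-1.03, SE 0.39) and Tnnt1 (-0.75, SE 0.23) fell from 0.758 ± 0.330 to 0.349 ± 0.136 and from 1.95 ± 0.467 to 1.07 ± 0.246 CPM (SD, n = 4). The Tnnc1 groups overlapped and those of Tnnt1 did not. Tnnc1 barely passed in edgeR (adjusted p = 0.0472), from 75 and 36 counts. Tropomyosins, which bind actin in all cells, gave Tpm1 (-0.67) and Tpm3 (-0.22) lower, Tpm2 (0.93) higher and Tpm4 (-0.09) not past the threshold. The partners of fast-muscle troponin were almost absent: Tnnc2, the fast troponin C, had 1 count in the untreated and 4 in the IL-4 libraries, and Myh1, Myh2 and Myh4, fast myosin heavy chains, had 0. Tnni2, at 12.5 to 21.6 FPKM in untreated cells, was measured beside these genes at or near 0.

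Among 8 tested synaptotagmins and fusion partners other than Syt8, 2 fell, 2 rose and 4 did not pass, with a median of 0.01. Syt7, a lysosomal synaptotagmin, rose from 0.0612 ± 0.0242 to 0.810 ± 0.109 CPM (SD, n = 4; log2 fold change 3.73, SE 0.33), from 6 and 85 counts. Syt6 rose slightly (0.31, SE 0.10), and Stx3 (-0.56) and Stx4a (-0.24), plasma membrane syntaxins, fell. Vamp8, Snap23, Stx1a and Syt3 did not pass.

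**Figure D5:**
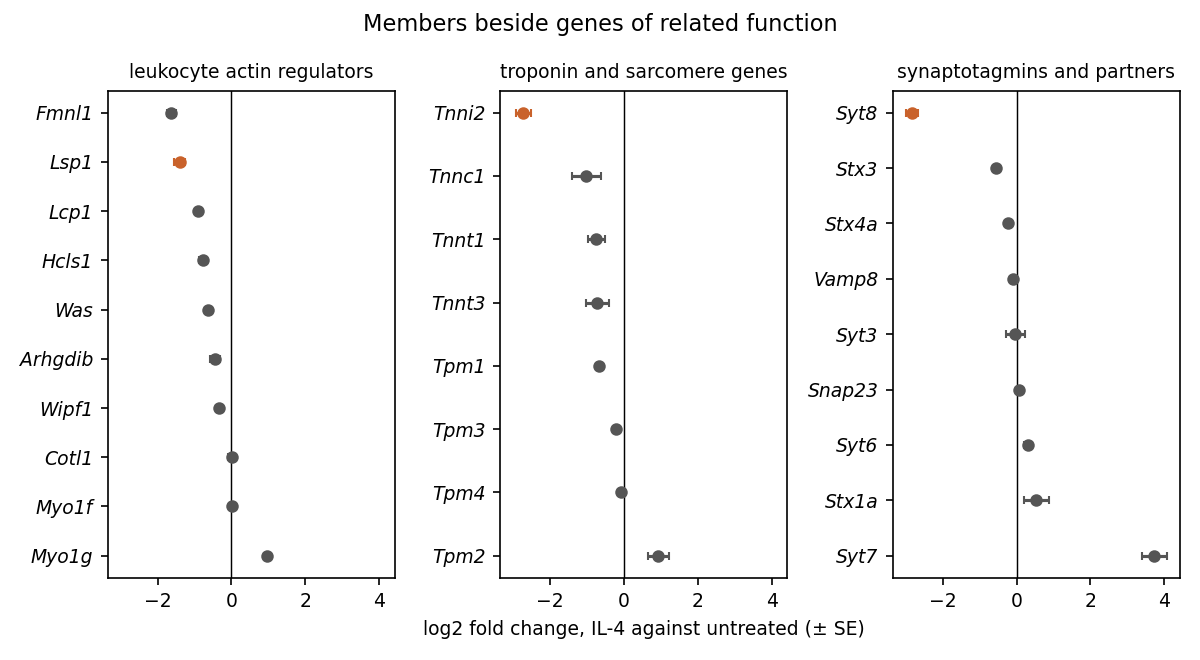
Log2 fold change of IL-4 against untreated with its standard error (horizontal axis, n = 4 per group) for the tested genes of 3 lists, members in orange. Lsp1 (-1.40) lies beside Fmnl1 (-1.63) near the low end of the actin list, and Tnni2 (-2.73) and Syt8 (-2.83) are the lowest points of theirs. The Syt8 point is the count of the whole locus with its long upstream exon and cannot be read as the annotated synaptotagmin transcript.

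Cell markers were read from the same files. Of 8 macrophage markers 4 were paired, and Adgre1 (F4/80) stood at 996 ± 88.8 and 387 ± 73.7 FPKM, Csf1r at 293 ± 20.4 and 199 ± 9.07, Mertk at 10.6 ± 1.28 and 5.73 ± 0.789 and Fcgr1 at 71.0 ± 10.7 and 1.56 ± 0.406 (SD, n = 4). By count, 3 of the 4 fell in edgeR. Csf1r had only 159 and 100 counts at these FPKM, so its count missed most of its signal and its failed call (adjusted p = 0.0561) says little, while its FPKM did not overlap between groups. These markers were lower with IL-4 along with the members, and their part in the result was not tested. Of 7 skeletal muscle markers 6 were paired: Myh1 and Myh4 were at 0 in all libraries, Acta1 had 31 counts untreated and 5 with IL-4, Myog, Ckm and Tnnc2 had 0 to 4 per group, and their summed FPKM ran from 0.0618 to 0.186 untreated and from 0.171 to 0.277 with IL-4. The largest part of the IL-4 sum was Ckm, at 0.0366 ± 0.0231 and 0.174 ± 0.0222 FPKM (SD, n = 4) from 0 and 3 counts. The higher sum with IL-4 therefore rests on almost no counted reads. Neutrophil markers (4 of 5 paired) summed to 0.937 to 1.69 and 0.958 to 1.55 FPKM, with Ltf at the highest level, and lymphocyte markers (3 of 4, Cd3e at 0) to 0.0329 to 0.0499 and 0 to 0.0293. Fibroblast markers (3 of 3, Col1a1 at 0) summed to at most 0.0161 FPKM and epithelial markers (3 of 3, Krt8 and Krt18 at 0) to at most 0.0129 in any library.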

How the data were processed

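RNA-seq of 4 untreated and 4 IL-4-treated macrophage libraries was used. Read counts of 31020 merged loci and FPKM of 89208 transcripts were deposited by the authors. The submitters' processing notes name HTSeq, Cufflinks 2.1.1, TopHat2 2.0.9, CASAVA 1.8.2 and the build mm9. The sources used here do not say whether reads were counted by strand. The design text calls the samples biological replicates, but nothing says that each came from its own animal, so a p-value covers only the spread among these samples, which may in part be technical. The replicate 4 libraries differ from the rest in chromosome Y counts, so the 8 libraries do not all share one source.

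The members and lists were chosen with earlier results of these data known, so members' differences are described without a test. Locus IDs carry no gene names, and 0 IDs matched the reference tables. Loci were named where their length and spacing followed RefSeq genes (GRCm38.p6): at least 3 exactly matching neighbours within 1000 kb and at least 50% of the longer span shared. This paired 61 of 76 symbols in 9 lists. Coordinates are mm9 except for the RefSeq promoter windows.

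Counts of all loci were fitted with edgeR 4.0.16 in R 4.3.3 (TMM, default expression filter keeping 13761 loci, quasi-likelihood test, two-sided, Benjamini-Hochberg, threshold 0.05), with no covariate. The procedure was also run on simulated data, with a dispersion shared by all loci and far fewer changed loci than were called here. Nothing about these data is read from that run. CPM are counts scaled to the library total. Standard errors of fold changes come from the test's F value. FPKM folds use log2(FPKM + 0.1), and the depth behind a single FPKM is unknown.

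Named loci were the members, coding loci within 250 kb of the window, isoforms with at least 10% of a locus' FPKM in either group, and the 3 coding loci most correlated with Lsp1. Deviations from group means of same-numbered libraries correlated at 0.452, 0.176, 0.281 and 0.215, all above the set limit of 0.1. The main fit did not pair the libraries, and the replicate block was run as an alternative. A pairing by number rests on the data and not on the labels, and is weak for replicates 2 and 3. Untreated 3 correlated with IL-4 2 at 0.303 and untreated 2 with IL-4 3 at 0.18. Untreated 1 and IL-4 4, at 0.123, passed the limit too. The limit therefore does not establish a pairing by number, and the folds by pair are a description only. Alternatives were RLE and upper-quartile factors, DESeq2 1.42.0, no count filter, the replicate block, each library left out, both replicate 4 libraries left out, FPKM in place of counts, and other pseudocounts.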

Additional observations from a re-analysis of the deposited data

Results flagged for a closer look

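Among 30 groups of 4 values for the members and their isoforms, 2 held a library far from the other 3 (its gap to the nearest, over the range of the group, was past Dixon's critical value). Chance flags about 1 in 20 such groups. The reference isoform of Tnni2 (TCONS_00072407) had 13.8 FPKM in untreated replicate 1, against 6.70 to 7.26 in the other 3 untreated libraries, whose mean was 7.02. The assembled Tnni2 isoform TCONS_00072408 had 1.812e-05 FPKM in IL-4 replicate 3, against 0.285 to 0.290 in the other 3 IL-4 libraries.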

How the results depend on the processing

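The 4 members kept a lower call in all 14 alternatives, and no fold change of a member reversed direction. Every alternative refits libraries on which the window was chosen, so the kept calls are a description and no test of the members. Some differences in isoform share were less stable. For these Syt8 isoforms they changed sign when single libraries were left out: -9.01 to 7.03 percentage points for TCONS_00072396, -0.997 to 18.2 for TCONS_00072403 and -12.0 to 1.32 for TCONS_00072405. The difference of Syt8 isoform TCONS_00072400 (1.48 to 3.42) and those of the named Tnni2 and Lsp1 isoforms kept their sign. The shares of all these isoforms overlapped between the groups. The number of all loci called, lower or higher, ran from 6352 to 7965, against 7127 of 13761 tested in the main fit. It ran from 6537 to 7696 when each library was left out. The number tested also differed by setting, from 13761 to 21080. With the replicate block 7965 were called. Among the members, Tnnt3, Ctsd and Mrpl23 the block changed only the call of Tnnt3. The log2 fold changes over all alternatives ran from -2.98 to -1.82 for Syt8 (-1.82 from FPKM), -2.84 to -2.51 for Tnni2, -1.53 to -1.26 for Lsp1, -1.90 to -1.63 for Prr33 and -0.91 to -0.49 for Tnnt3. Folds of Syt8, Prr33 and low Tnni2 isoforms depend on the pseudocount: the Prr33 isoform lay at -1.96 with 0.01 and at -0.65 with 1. The counts of Tnnt3 and of the IL-4 Syt8 and Prr33 libraries limit their precision.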
